A study of Mus musculus with 6 samples.

Results

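The 34 genes described here encode the transcription factor NRF2, its inhibitor KEAP1, and enzymes and small proteins that handle glutathione, thioredoxin, peroxides, superoxide and metal ions. They were taken from a fixed list of gene symbols, chosen with earlier results of these data known. All 34 were found among the 35275 Ensembl gene identifiers of the count table. The libraries came from liver cells of p16-Cre/Rosa26-mTmG mice aged 1 year, enriched for the surface protein CD31 with magnetic beads. The cells were sorted into GFP-positive and GFP-negative fractions, labelled p16/EGFP-positive and p16/EGFP-negative, with 3 libraries each. Both fractions carry the same alleles: a Cre recombinase under control of the p16 gene and a membrane reporter that changes from a red to a green protein once Cre has acted. Green cells are therefore those in which the p16 promoter was used at that time or earlier, in the cell or in a precursor, and the label does not show that p16 is still expressed. CD31 is found on endothelium and also on platelets and many leukocytes. Whether the sorted cells had been cultured, as the growth protocol describes for enriched cells, and which animal each library came from, the sources used here do not say. The p-values therefore compare libraries, and their spread may be technical rather than between animals.

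NRF2, the product of Nfe2l2, is held in the cytoplasm by KEAP1, which marks it for degradation. Oxidants and electrophiles modify KEAP1, NRF2 then enters the nucleus, pairs with small MAF proteins and binds antioxidant response elements near genes for glutathione synthesis, detoxification and thioredoxin reduction. In the liver, macrophages and sinusoidal endothelium take up haem, lipid and debris from blood and rely on these enzymes, and hepatocytes use many of them to clear foreign compounds.

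The 6 libraries held 16766556 to 22627555 counts. Transcripts of Cdkn2a, which encodes p16, were counted 15, 27 and 7 times in the GFP-positive libraries and 0 times in each GFP-negative library, at least 19.4-fold higher against 3 counts over the GFP-negative group (two-sided exact permutation p = 0.1, the smallest that 3 libraries against 3 allow). Such floors cover counting error only, because several reads can be copies of 1 molecule. Of 12122 genes that entered edgeR's quasi-likelihood test, 2157 (17.8%) passed a Benjamini-Hochberg adjusted p of 0.05, against 994, 1027 and 1045 without GFP-negative library 1, 2 or 3. The cell types behind the libraries also differed. Summed Kupffer cell markers stood at 826 to 1120.5 CPM in GFP-negative and 13625 to 14558 CPM in GFP-positive libraries, and B cell markers at 13412 to 14484 CPM in GFP-negative and 74.5 to 181 CPM in GFP-positive libraries. Pecam1, which encodes CD31, was at 453 ± 58.5 against 342 ± 41.0 CPM in GFP-positive and GFP-negative libraries (mean ± SD over 3 libraries; CPM are counts per 1000000 on TMM-scaled library sizes) and did not pass (adjusted p = 0.123). In such bulk libraries, fewer cells of a type and less RNA per cell cannot be told apart.

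Of the 34 genes, 33 had enough counts to be tested. GFP-positive libraries held more transcripts of 12 of them: Nfe2l2, Gclm, Gsr, Sod1, Prdx1, Prdx4, Prdx5, Txn1, Gstm1, Gstm2, Gstp1 and Mt1. This count was 6 without GFP-negative library 1, 6 without GFP-negative library 3, and 8 without GFP-negative library 2 or GFP-positive library 2. None of the 33 was called lower by edgeR at an adjusted p under 0.05. At an unadjusted edgeR p under 0.05, 16 were higher and 2, Prdx6 and Txnip, were lower. DESeq2 called the same 2 lower, and its count of higher genes is given below. Shares of all genes at an unadjusted p or by DESeq2 are not given here. Among all genes tested 7.65% were called higher and 10.1% lower by edgeR at an adjusted p under 0.05. The median log2 fold change (GFP-positive minus GFP-negative, the direction of every fold change here) was 0.72 over the 33 and −0.09 over all genes tested. When all genes tested were split by mean level into 4 classes of equal size, all 12 called genes fell in the highest class (log2 CPM of at least 6.03), which holds 22 of the 33. In that class 22.3% of all genes were called higher, against 1.42% in the lowest class. Every GFP-positive library stood above every GFP-negative library for 18 of the 33 genes and below for 3, Keap1, Prdx6 and Txnip, so that the groups of 21 of the 33 did not overlap. Among all genes tested these shares were 18.5% above, 23.9% below and 42.4% in either direction. The summed CPM of all 34 genes was 5418 to 5798 CPM in GFP-negative and 7809 to 9813 CPM in GFP-positive libraries.

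**Figure D1:**
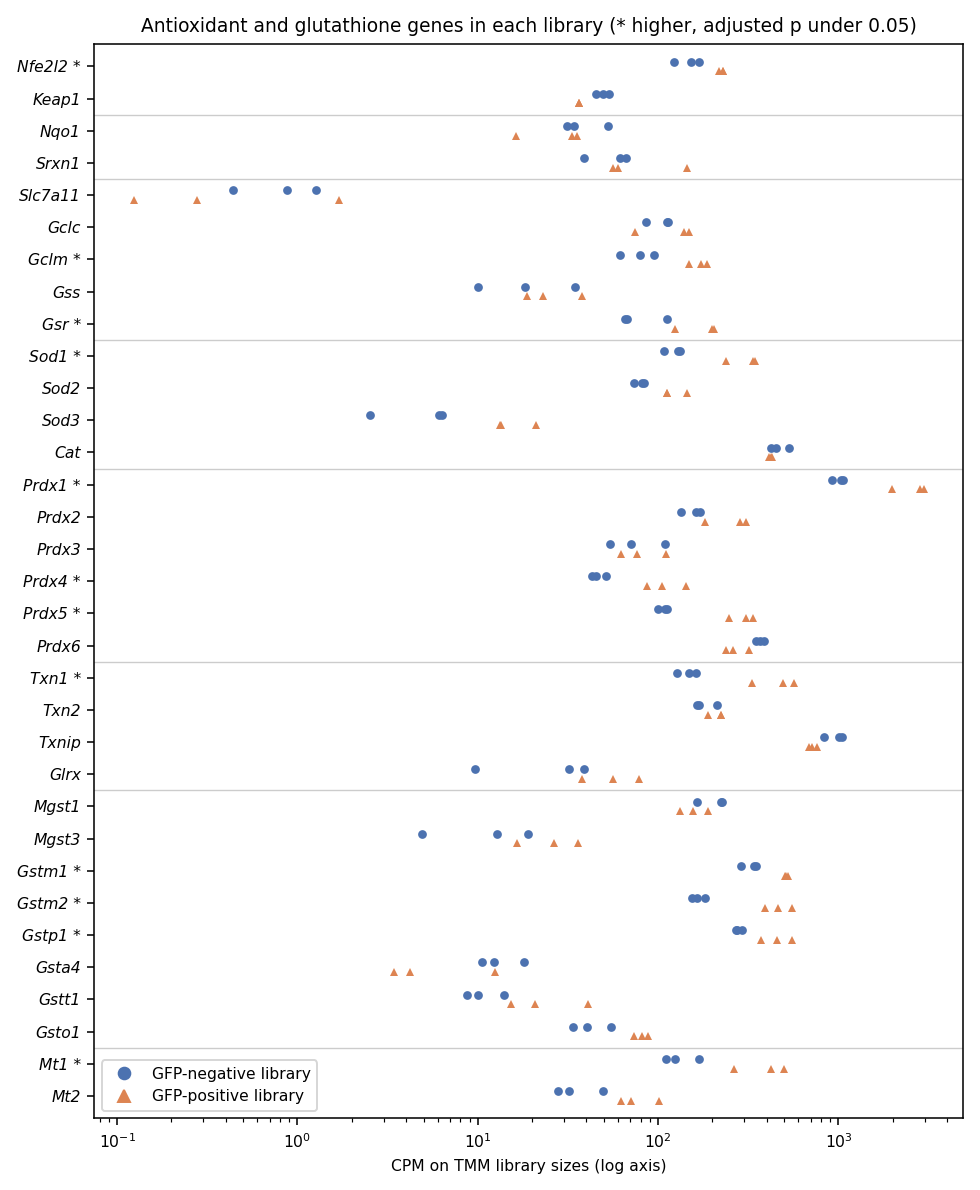
Level of each of the 33 genes tested in every library, in CPM on a log axis, with circles for the 3 GFP-negative and triangles for the 3 GFP-positive libraries and lines between roles. The triangles of Prdx1, Txn1 and Sod1 lie to the right of their circles, those of Keap1, Prdx6 and Txnip to the left, and those of Slc7a11 and Prdx3 overlap their circles.

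Of the 2 regulators Nfe2l2 was higher and Keap1 did not pass. Nfe2l2 (ENSMUSG00000015839) stood at 151, 168 and 122 CPM in GFP-negative libraries 1 to 3 and at 229, 217 and 230.0 CPM in GFP-positive libraries 1 to 3. The groups did not overlap, and the log2 fold change was 0.62 ± 0.17 (SE; edgeR adjusted p = 0.0461). This call was lost in all 6 fits that left out 1 library (adjusted p = 0.0807 to 0.129), and with library totals alone (0.0506), no filter on low counts (0.0693) and without lymphocyte genes (0.0514). Keap1, the adaptor that directs NRF2 to the CUL3 ubiquitin ligase, stood at 45.2, 49.8 and 53.3 CPM in GFP-negative and 36.5, 36.2 and 36.2 CPM in GFP-positive libraries. All GFP-positive values were below the GFP-negative ones, but the log2 fold change of −0.44 ± 0.27 did not pass (edgeR adjusted p = 0.338).

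The quinone reductase Nqo1 and the sulfiredoxin Srxn1, which repairs over-oxidised peroxiredoxins, are textbook NRF2 targets, and neither passed the test. Nqo1 stood at 28.4 ± 10.5 against 39.5 ± 11.8 CPM in GFP-positive against GFP-negative libraries (log2 fold change −0.47 ± 0.44, edgeR adjusted p = 0.542). Srxn1 stood at 55.9, 59.8 and 144 CPM in GFP-positive and 38.6, 61.4 and 66.6 CPM in GFP-negative libraries, where GFP-positive library 3 was far above the other 5 (log2 fold change 0.64 ± 0.44, edgeR adjusted p = 0.397).

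Of 5 genes of glutathione synthesis and recycling 2 were higher, Gclm and Gsr, and 3 did not pass. Gclm (ENSMUSG00000028124), the modifier subunit of glutamate-cysteine ligase, stood at 79.7, 94.7 and 61.7 CPM in GFP-negative and 187, 149 and 172 CPM in GFP-positive libraries. The groups did not overlap, and the log2 fold change was 1.11 ± 0.22 (SE; edgeR adjusted p = 0.0172). The call was lost without GFP-negative library 1 or 3 or GFP-positive library 1 (adjusted p = 0.0673, 0.0536 and 0.0524). Gclc, the catalytic subunit of the same enzyme, stood at 113, 111 and 85.4 CPM in GFP-negative and 74.4, 149 and 139 CPM in GFP-positive libraries, which overlapped (log2 fold change 0.22 ± 0.30, edgeR adjusted p = 0.691). Gsr (ENSMUSG00000031584), glutathione reductase, which returns oxidised glutathione to its reduced form, stood at 65.8, 112 and 67.3 CPM in GFP-negative and 123, 199 and 203 CPM in GFP-positive libraries. Its groups did not overlap either, and the log2 fold change of 1.10 ± 0.31 lay at the threshold (edgeR adjusted p = 0.0499). It was lost without GFP-negative library 1 or 3 or GFP-positive library 2 or 3 (adjusted p = 0.155, 0.154, 0.124 and 0.12). It was also lost with RLE size factors (0.0519), library totals alone (0.0587), no filter on low counts (0.0542) and without lymphocyte genes (0.0532). Gss, glutathione synthetase, was at 0.35 ± 0.59 (edgeR adjusted p = 0.765), and Slc7a11, the cystine importer, stood at 0.697 ± 0.863 against 0.861 ± 0.411 CPM and did not pass (−0.30 ± 1.22, edgeR adjusted p = 0.909). In GENCODE M21 an exon of Gss overlaps one of Acss2 on the opposite strand (85, 70 and 78 counts in GFP-negative and 0, 153 and 1 counts in GFP-positive libraries), and its value is uncertain too. The Slc7a11 counts were 2, 29 and 5 in GFP-positive and 17, 8 and 29 in GFP-negative libraries, a wide spread within each fraction.

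Among enzymes that remove superoxide and hydrogen peroxide, Sod1 was higher and Sod2, Sod3 and Cat did not pass. Sod1 (ENSMUSG00000022982), the cytosolic copper and zinc superoxide dismutase, stood at 133, 129 and 108 CPM in GFP-negative and 336, 343 and 239 CPM in GFP-positive libraries. The groups lay well apart. The log2 fold change was 1.31 ± 0.20 (SE; edgeR adjusted p = 0.00573), and it passed in all 6 fits without 1 library. Sod2, the mitochondrial manganese enzyme, stood at 73.7, 81.3 and 83.0 CPM in GFP-negative and 112, 144 and 112 CPM in GFP-positive libraries, with no overlap (log2 fold change 0.63 ± 0.20, edgeR adjusted p = 0.0787). Sod3, the secreted enzyme, was low, at 2.53, 6.07 and 6.31 CPM in GFP-negative and 13.4, 20.9 and 13.4 CPM in GFP-positive libraries (log2 fold change 1.67 ± 0.78, edgeR adjusted p = 0.204). Catalase, the peroxisomal enzyme encoded by Cat, stood at 419.9 ± 8.09 against 469 ± 56.8 CPM, groups that overlapped (log2 fold change −0.16 ± 0.13, edgeR adjusted p = 0.477).

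Peroxiredoxins reduce peroxides with a reactive cysteine, and 3 of the 6 were higher. Prdx1 (ENSMUSG00000028691), a cytosolic member, stood at 1065, 1033 and 915 CPM in GFP-negative and 2969, 2837 and 1976 CPM in GFP-positive libraries, with the lowest GFP-positive value in library 3. The log2 fold change was 1.37 ± 0.17 (SE; edgeR adjusted p = 0.00252). Prdx5 (ENSMUSG00000024953), found in mitochondria, peroxisomes and cytosol, stood at 111, 109 and 99.8 CPM in GFP-negative and 334, 305 and 248 CPM in GFP-positive libraries (log2 fold change 1.47 ± 0.17, edgeR adjusted p = 0.00184). Both passed in all 6 fits without 1 library. An exon of Prdx5 overlaps one of Trmt112 on the opposite strand in GENCODE M21, so its value is uncertain, with 695, 708 and 809 counts in GFP-negative and 708, 821 and 587 counts in GFP-positive libraries for Trmt112. Prdx4 (ENSMUSG00000025289), the member of the endoplasmic reticulum, stood at 42.7, 45.3 and 51.1 CPM in GFP-negative and 105, 144 and 86.9 CPM in GFP-positive libraries (log2 fold change 1.27 ± 0.26, edgeR adjusted p = 0.0193). Its call was lost without any 1 GFP-negative library or GFP-positive library 2 (adjusted p = 0.056 to 0.0776).

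The other 3 peroxiredoxins did not pass, and their values lay on both sides of 0. Prdx2, a cytosolic member abundant in red cells, stood at 162, 169.8 and 134 CPM in GFP-negative and 308, 285 and 183 CPM in GFP-positive libraries, with no overlap (log2 fold change 0.73 ± 0.23, edgeR adjusted p = 0.0731). Without GFP-positive library 3, its lowest GFP-positive value, it passed (log2 fold change 0.93, adjusted p = 0.0181). In GENCODE M21 an exon of Prdx2 overlaps one of Junb on the opposite strand, and Junb held 32263, 30371 and 37388 counts in GFP-negative but 674, 407 and 763 counts in GFP-positive libraries. The sources used here do not say whether the counting used strand, and the Prdx2 value is uncertain. Prdx3, a mitochondrial member, had overlapping groups (log2 fold change 0.09 ± 0.35, edgeR adjusted p = 0.907). Prdx6, which also acts on phospholipid peroxides, stood at 347, 369 and 384 CPM in GFP-negative and 319, 239 and 261 CPM in GFP-positive libraries. Every GFP-positive value was below the GFP-negative ones (log2 fold change −0.43 ± 0.15, edgeR adjusted p = 0.104).

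The RefSeq promoter window of Prdx1, chr4:116685349-116685648 on the plus strand of GRCm38.p6, is shown because Prdx1 had the highest level of the called genes and because the window holds the core of an antioxidant response element. The window runs from 250 bases before the annotated start of transcription to 50 bases after it. Capitals mark the match, which lies on the opposite strand and overlaps the AP-1 motif TGACTCA. The window of Gclm, chr3:122245307-122245606 on the plus strand, is shown beside it. Its match also lies on the opposite strand and overlaps a match to the core of a metal response element.
Prdx1: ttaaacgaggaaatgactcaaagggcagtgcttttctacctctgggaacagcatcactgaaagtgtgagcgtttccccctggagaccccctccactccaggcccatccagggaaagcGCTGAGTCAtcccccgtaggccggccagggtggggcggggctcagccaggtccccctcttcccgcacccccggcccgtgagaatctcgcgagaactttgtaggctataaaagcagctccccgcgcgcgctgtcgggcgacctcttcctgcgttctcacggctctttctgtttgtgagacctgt
Gclm: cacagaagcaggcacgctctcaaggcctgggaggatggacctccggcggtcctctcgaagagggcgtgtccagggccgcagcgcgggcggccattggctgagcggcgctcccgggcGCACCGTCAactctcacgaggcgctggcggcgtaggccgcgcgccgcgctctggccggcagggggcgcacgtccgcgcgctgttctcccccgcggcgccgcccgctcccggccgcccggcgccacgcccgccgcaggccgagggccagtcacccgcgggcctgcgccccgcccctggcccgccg

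Of the thioredoxin genes, Txn1 was higher and Txn2, Txnip and Glrx did not pass. Txn1 (ENSMUSG00000028367), the cytosolic thioredoxin that keeps peroxiredoxins reduced, stood at 162, 149 and 128 CPM in GFP-negative and 567, 492 and 331 CPM in GFP-positive libraries. The log2 fold change was 1.66 ± 0.23 (SE; edgeR adjusted p = 0.0041), the largest among the 12 called genes, and passed in all 6 fits without 1 library. Txn2, the mitochondrial thioredoxin, stood at 169, 165 and 212 CPM in GFP-negative and 224, 222 and 189 CPM in GFP-positive libraries, which overlapped (log2 fold change 0.22 ± 0.17, edgeR adjusted p = 0.456). Txnip encodes a protein that binds and inhibits thioredoxin, and it stood at 834, 1012 and 1049 CPM in GFP-negative and 687, 709.6 and 758 CPM in GFP-positive libraries. Every GFP-positive library was below every GFP-negative one, and the log2 fold change of −0.43 ± 0.12 lay just outside the threshold (edgeR adjusted p = 0.0525). Without GFP-negative library 1 it passed (log2 fold change −0.52, adjusted p = 0.0486). Glrx, a glutaredoxin that removes glutathione from proteins, had overlapping groups (log2 fold change 1.10 ± 0.56, edgeR adjusted p = 0.247).

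Of 9 glutathione transferases, which join glutathione to reactive compounds, 8 were tested and Gstm1, Gstm2 and Gstp1 were higher. Gstm2 (ENSMUSG00000040562) stood at 181, 165 and 155 CPM in GFP-negative and 553, 465 and 391 CPM in GFP-positive libraries. Its log2 fold change was 1.49 ± 0.17 (SE; edgeR adjusted p = 0.00181) and passed in all 6 fits without 1 library. Gstm1 (ENSMUSG00000058135) stood at 347, 286 and 342 CPM in GFP-negative and 507, 513 and 522 CPM in GFP-positive libraries, with the 3 GFP-positive values close together (log2 fold change 0.66 ± 0.13, edgeR adjusted p = 0.0138; 0.0566 without GFP-negative library 2). Gstp1 (ENSMUSG00000060803) stood at 274, 272 and 293 CPM in GFP-negative and 552, 457 and 370.0 CPM in GFP-positive libraries (log2 fold change 0.72 ± 0.17, edgeR adjusted p = 0.0282). Its call held without GFP-positive library 3 (adjusted p = 0.0122) and was lost in each of the other 5 fits without 1 library (0.0658 to 0.1). These genes have close paralogs next to them in the genome, such as Gstp2 beside Gstp1, and the counting could split or drop shared reads, so their values are uncertain.

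The other transferases did not pass. Gsto1, an omega class enzyme that macrophages also use, stood at 33.9, 40.1 and 54.5 CPM in GFP-negative and 73.6, 87.3 and 81.6 CPM in GFP-positive libraries, with no overlap (log2 fold change 0.92 ± 0.28, edgeR adjusted p = 0.0633). Gstt1, a theta class enzyme, stood at 8.74, 9.98 and 14.1 CPM in GFP-negative and 20.8, 40.6 and 15.3 CPM in GFP-positive libraries, also without overlap but with a wide spread (log2 fold change 1.22 ± 0.59, edgeR adjusted p = 0.216). Mgst1 and Mgst3, microsomal transferases of membranes, were at −0.36 ± 0.21 and 1.10 ± 0.66, and Gsta4, an alpha class enzyme that acts on lipid peroxidation products, at −1.03 ± 0.84, each with overlapping groups (edgeR adjusted p = 0.309, 0.319 and 0.487). Mgst2 was too low to be tested, with 111, 81 and 1 counts in GFP-negative and 5, 0 and 0 counts in GFP-positive libraries. Its groups overlapped because of GFP-negative library 3.

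Metallothioneins bind zinc and copper through their many cysteines. Mt1 (ENSMUSG00000031765) stood at 123, 169 and 111 CPM in GFP-negative and 499.6, 421 and 265 CPM in GFP-positive libraries, with no overlap and a log2 fold change of 1.56 ± 0.28 (SE) at an edgeR adjusted p of 0.0119. The call was lost without GFP-negative library 1 or 3 (adjusted p = 0.0567 and 0.0536). Mt2 (ENSMUSG00000031762), its neighbour on chromosome 8, stood at 31.9, 49.3 and 27.7 CPM in GFP-negative and 101, 70.8 and 62.1 CPM in GFP-positive libraries. Its groups did not overlap either, but the log2 fold change of 1.11 ± 0.34 did not pass (edgeR adjusted p = 0.0706). In both genes GFP-positive library 1 was the highest and GFP-positive library 3 the lowest of the GFP-positive libraries.

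The promoter windows of both metallothionein genes are shown because metal response elements, bound by the zinc-sensing factor MTF1, are the best known control of these genes. They are Mt1 at chr8:94178839-94179138 and Mt2 at chr8:94172368-94172667, both on the plus strand of GRCm38.p6 and credited to RefSeq, and capitals mark matches to the metal response element core TGCACNC or TGCGCNC on either strand. The Mt1 window held 3 matches and the Mt2 window 4. The Mt2 window also holds TGACTCAGC, a match to the antioxidant response element core that contains the AP-1 motif.
Mt1: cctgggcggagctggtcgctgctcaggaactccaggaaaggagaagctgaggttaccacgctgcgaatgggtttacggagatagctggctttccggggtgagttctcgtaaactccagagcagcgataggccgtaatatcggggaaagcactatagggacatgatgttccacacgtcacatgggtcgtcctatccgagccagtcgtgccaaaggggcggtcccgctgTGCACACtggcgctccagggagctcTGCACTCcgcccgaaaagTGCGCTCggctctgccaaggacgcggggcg
Mt2: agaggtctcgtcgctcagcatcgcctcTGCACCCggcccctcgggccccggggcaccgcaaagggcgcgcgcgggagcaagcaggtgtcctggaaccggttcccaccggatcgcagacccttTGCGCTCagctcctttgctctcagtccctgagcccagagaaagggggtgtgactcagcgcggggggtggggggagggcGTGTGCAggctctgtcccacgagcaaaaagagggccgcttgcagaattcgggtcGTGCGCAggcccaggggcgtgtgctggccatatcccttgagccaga

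Of the 34 genes 29 had such a window in RefSeq. The antioxidant response element core was searched as TGACNNNGC on both strands. It was found for 7 of the 29: Gclm, Mgst1, Mt2, Nfe2l2, Prdx1, Sod1 and Srxn1. Among all 32851 promoter windows 12.4% held it. Of the 7 genes with a match 4 were called higher, and of the 21 tested without one 7 were. The metal response element core was found for 9 of the 29 and in 25.7% of all windows. The AP-1 motif was found for 6 of the 29 and in 5.2% of all windows. Called higher were 4 of 9 with and 7 of 19 tested without the metal response element core. For the AP-1 motif these were 2 of 5 tested with it and 9 of 23 without. Among all genes tested 7.65% were called higher, and 22.3% in the class of highest level. Counted by window, 7, 11 and 7 of the 32 windows of these genes held the antioxidant, metal and AP-1 motifs. A match is a description of the letters in this window and not of binding.

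**Figure D2:**
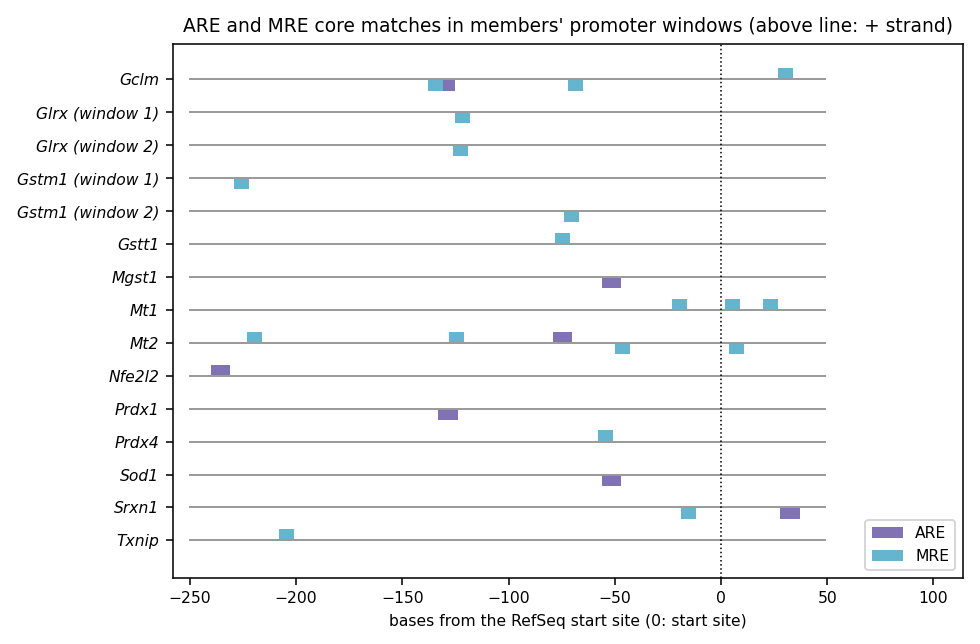
Matches to the antioxidant response element core (ARE) and the metal response element core (MRE) in each promoter window that holds one, against the distance in bases from the RefSeq start site, with boxes above the line for the plus strand of the gene and below for the minus strand. Genes with a match in the windows of 2 RefSeq starts have 2 lines, and Mgst1, with a match in 1 of its 2 windows, has 1. Mt1 and Mt2 have 3 and 4 metal response element matches, and Gclm, with 3, has 1 that overlaps its antioxidant response element match.

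**Figure D3:**
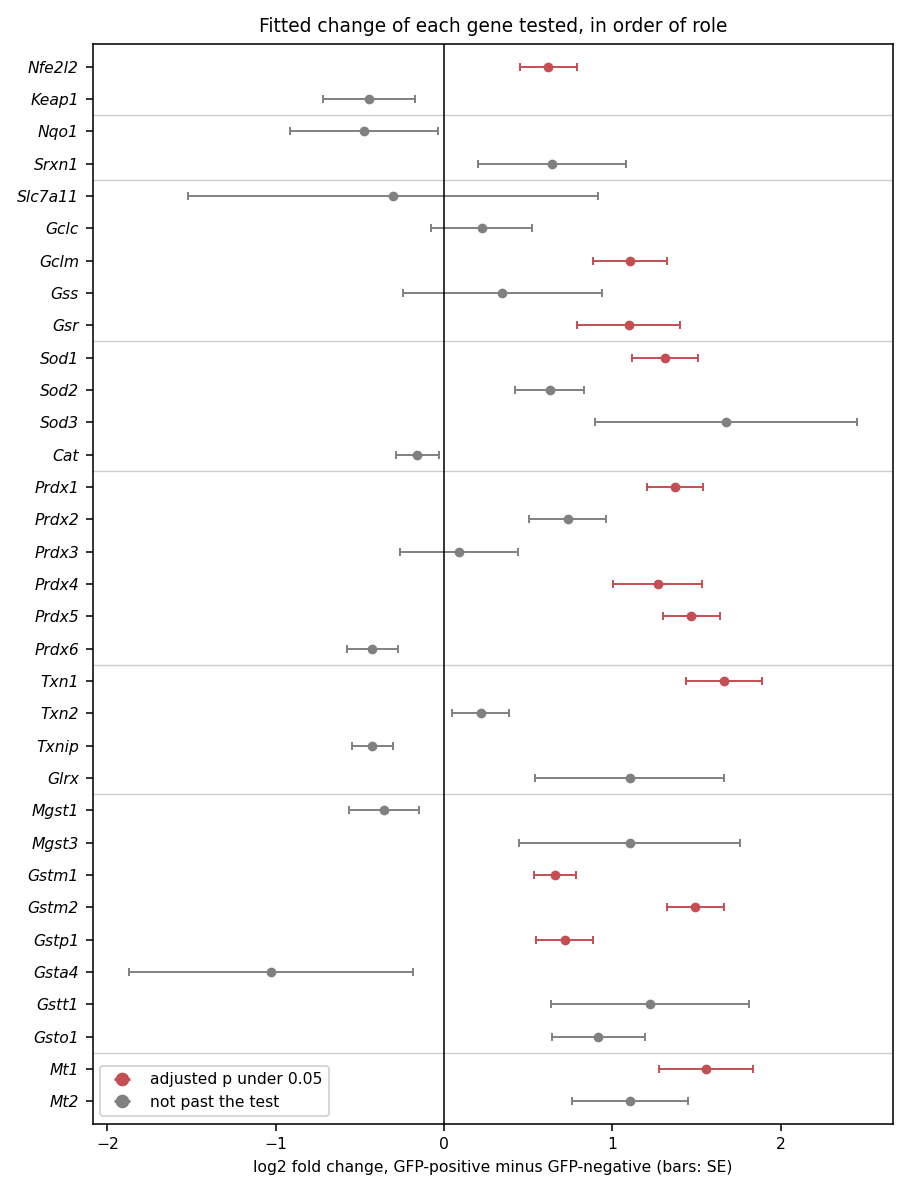
Log2 fold change of the 33 genes tested, GFP-positive minus GFP-negative, with bars for the SE, ordered by role and coloured by whether the edgeR adjusted p is under 0.05. The 12 called genes lie between 0.62 for Nfe2l2 and 1.66 for Txn1, and no called gene lies below 0.

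Levels per length, in CPM per kilobase of merged exons in GENCODE M21, put Prdx1 at the top in both fractions. In GFP-positive libraries it stood at 852 ± 177 CPM per kilobase (mean ± SD, n = 3), followed by Txn1 at 441 ± 115, Gstm1 at 349 ± 5.29, Mt1 at 317 ± 95.9, Gstp1 at 297 ± 58.8 and Gstm2 at 279.8 ± 48.4 CPM per kilobase. From Txn1 to Gstm2, no neighbours in this order were further apart than the larger of their SDs. In GFP-negative libraries Prdx1 stood at 330.0 ± 26.0 CPM per kilobase, and Txnip, at 309 ± 36.7, was within its SD of Prdx1. Gstm1 followed at 221 ± 22.9, Gstp1 at 181 ± 7.74, Cat at 179.5 ± 21.7 and Txn1 at 139 ± 16.4 CPM per kilobase. The lowest levels in both fractions were those of Slc7a11 and Mgst2, under 1 CPM per kilobase.

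Ratios between partner genes within a library do not depend on how libraries are scaled. The 7 pairs below were chosen after the values had been seen, most of them a called gene with an uncalled partner, so their differences are a description with no test. The log2 ratio of Nfe2l2 to Keap1 counts was 1.74, 1.75 and 1.19 in GFP-negative and 2.65, 2.59 and 2.67 in GFP-positive libraries, higher by 1.07 in GFP-positive libraries. That of cytosolic Txn1 to mitochondrial Txn2 was −0.06, −0.14 and −0.73 in GFP-negative and 1.34, 1.15 and 0.80 in GFP-positive libraries, higher by 1.41. Txn2 was thus the more counted gene in every GFP-negative library and Txn1 in every GFP-positive one, in counts not scaled by length. Merged exons span 4208 bases for Txn2 and 1051 bases for Txn1. Per kilobase Txn1 was above Txn2 in both fractions, at 139 against 43.2 CPM in GFP-negative and 441 against 50.3 CPM in GFP-positive libraries. The ratio of Prdx5 to Prdx3 was higher by 1.35, Gclm to Gclc by 0.95, Gstm2 to Gstm1 by 0.81, Sod1 to Sod2 by 0.68 and Mt1 to Mt2 by 0.41 on the log2 scale. Without GFP-positive library 1 the difference for Gclm to Gclc was 0.56.

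**Figure D4:**
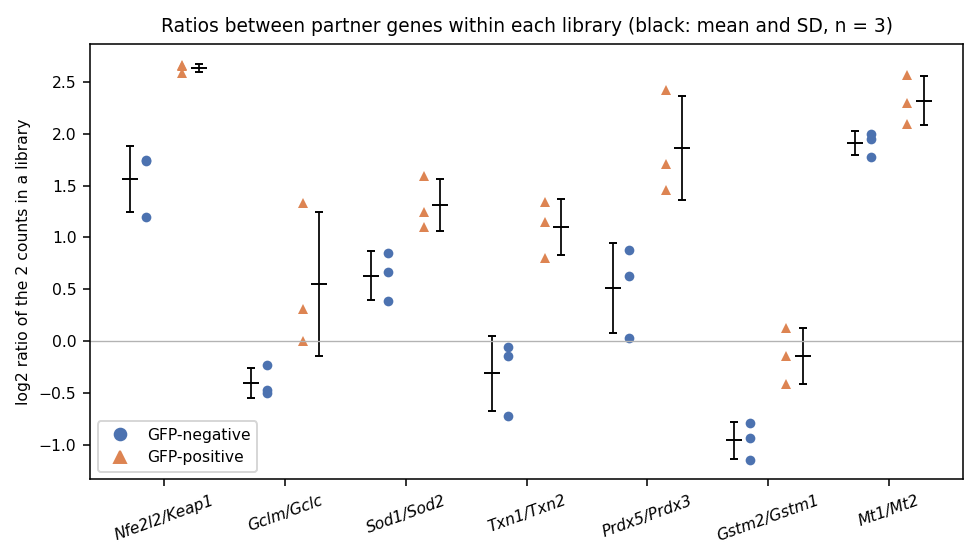
Log2 ratio of the counts of 2 partner genes in each library, for 7 pairs, with circles for GFP-negative and triangles for GFP-positive libraries and black marks for the mean and SD (n = 3). In these 7 chosen pairs the GFP-positive ratios lie above the GFP-negative ones, and the Gclm to Gclc ratio spreads most among GFP-positive libraries, from 0.0045 to 1.33.

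GFP-positive library 3 had the lowest GFP-positive value of 18 of the 33 genes, among them 8 of the 12 called: Sod1, Prdx1, Prdx4, Prdx5, Txn1, Gstm2, Gstp1 and Mt1. GFP-positive libraries 1 and 2 had the lowest value of 9 and 6 genes. The shares over all genes tested are not given here. GFP-positive library 3 had the highest value of 7, among them Srxn1, Gss, Gsr and Glrx. This library was also lower in short genes as a whole. The median log2 ratio of its CPM to the mean of GFP-positive libraries 1 and 2 (after adding 0.5 CPM to each) was −0.25 over the shortest and 0.12 over the longest of 4 equal classes of all tested genes by merged exon length. Of the 33 genes, 15 were in the shortest class, with merged exons of at most 2541 bases, and 7 of these 15 were called higher. In that class 9.50% of all tested genes were called higher, against 5.14% in the longest class, which held 2 of the 33. Across all tested genes, merged exon length and log2 fold change had a Spearman correlation of −0.06 (n = 12075), and over the 33 genes of −0.25. From the shortest to the longest class, the median log2 fold change of the 33 genes was 1.10, 0.64, 0.35 and 0.16, over 15, 11, 5 and 2 genes. The median merged exon length was 2122.5 bases for the 12 called genes and 3050 bases for the 21 not past the test. The part of transcript length in these results was not tested. Without GFP-positive library 3, 11 of the genes were called higher.

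The other genes of the pathway came from a list of 99 symbols, of which 86 were tested. GFP-positive libraries held more of 15 and less of 4, and 67 did not pass, with a median log2 fold change of 0.45. Over all genes tested, 7.65% were higher and 10.1% lower, with a median of −0.09, and 22.3% were higher in the class of highest level. The 15 were Hmox1, Blvra, Blvrb, Ftl1, Taldo1, Akr1b8, Esd, Gpx1, Gpx3, Gpx4, Gstk1, Alox5ap, Txndc17, Arrdc4 and Msrb3, and the 4 were Bach2, Sqstm1, Sesn3 and Txndc5. The count of lower genes was 1, 2 and 2 without GFP-negative library 1, 2 or 3. Hmox1, haem oxygenase 1, stood at 54.4, 84.9 and 125 CPM in GFP-negative and 503, 613 and 478 CPM in GFP-positive libraries, a log2 fold change of 2.59 ± 0.31 (SE) at an edgeR adjusted p of 0.00244. The biliverdin reductases Blvra and Blvrb, the next enzymes in haem breakdown, rose by 1.99 ± 0.31 and 1.47 ± 0.18 (edgeR adjusted p = 0.00709 and 0.00256). Of 25 other NRF2-controlled genes tested 7 were higher and none lower. Txnrd1, thioredoxin reductase 1, stood at 80.8, 57.9 and 98.5 CPM in GFP-negative and 153, 108 and 180.3 CPM in GFP-positive libraries and did not pass (log2 fold change 0.89 ± 0.29, edgeR adjusted p = 0.0782).

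Of 31 genes tested in the list of other glutathione enzymes and related genes 5 were higher, Gpx1, Gpx3, Gpx4, Gstk1 and Alox5ap. Gpx3, the secreted glutathione peroxidase, stood at 25.5, 12.3 and 12.8 CPM in GFP-negative and 117, 124 and 133 CPM in GFP-positive libraries, and its log2 fold change of 2.89 ± 0.36 at an edgeR adjusted p of 0.00286 was the largest of the called genes of this list. Alox5ap, the 5-lipoxygenase activating protein of leukocytes, rose by 2.35 ± 0.36 and Gstk1, a kappa class transferase, by 1.66 ± 0.39 (edgeR adjusted p = 0.0063 and 0.0271). Gstk1 kept its call only without GFP-positive library 3 (adjusted p = 0.0128; 0.07 to 0.0971 in the other 5 fits without 1 library).

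Among thioredoxin and stress genes 3 of 19 tested were higher and 2 lower. Msrb3, a methionine sulfoxide reductase, rose by 1.64 ± 0.14, Arrdc4, an arrestin relative of Txnip, by 1.62 ± 0.39, and Txndc17, a thioredoxin-like protein, by 1.26 ± 0.24 (edgeR adjusted p = 0.000562, 0.0301 and 0.0141). Arrdc4 kept its call only without GFP-negative library 2 (0.0419; 0.0551 to 0.0887 in the other 5 fits), and Txndc17 lost it without any 1 GFP-negative library (0.0538 to 0.0674). Sesn3, a sestrin, had 0 counts in all GFP-positive libraries and stood at 29.9, 40.9 and 17.5 CPM in GFP-negative ones, at least 504-fold lower against 3 counts over the GFP-positive group. Txndc5, a disulfide isomerase of the endoplasmic reticulum, fell by 1.26 ± 0.24 on the log2 scale (edgeR adjusted p = 0.0155; 0.0656 without GFP-negative library 1).

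Among partners and regulators of NRF2 none of 11 tested was higher and 2 were lower. Bach2, a repressor of the same DNA elements that B cells express, stood at 66.4, 99.5 and 64.7 CPM in GFP-negative and 0.0620, 4.43 and 2.38 CPM in GFP-positive libraries, a log2 fold change of −5.06 ± 1.14 at an edgeR adjusted p of 0.0248. The markers of B cells had, between the same fractions, a median log2 fold change of −7.04. The Bach2 call was lost without any 1 GFP-negative library or GFP-positive library 3 (0.0662 to 0.0921). Sqstm1, the p62 autophagy receptor that binds KEAP1, fell by 0.61 ± 0.13 (edgeR adjusted p = 0.0214) and kept its call only without GFP-positive library 3 (0.0489; 0.0504 to 0.0674 in the other 5 fits). Bach1, the haem-sensing repressor of Hmox1, and the small MAF genes Maff, Mafg and Mafk were at 0.25 ± 1.87, 0.24 ± 0.96, 0.04 ± 0.48 and −0.42 ± 0.29, and none passed (edgeR adjusted p = 0.951, 0.908, 0.972 and 0.405).

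**Figure D5:**
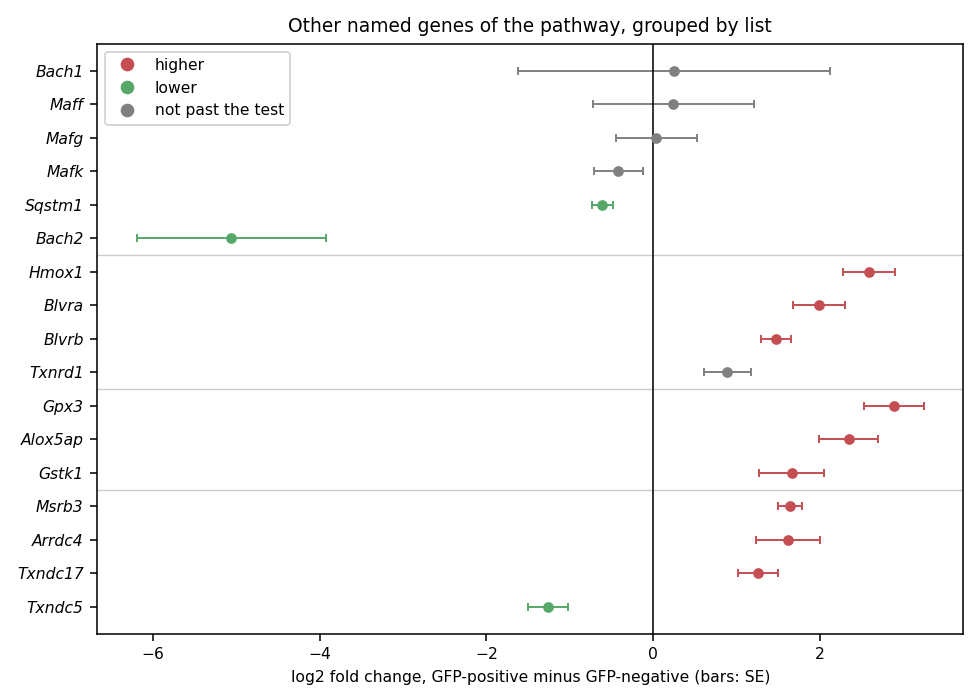
Log2 fold change with SE of the other pathway genes named here, GFP-positive minus GFP-negative, grouped by list and coloured by call, without Sesn3, whose GFP-positive counts are all 0. Hmox1 and Gpx3 lie at 2.59 and 2.89, and Bach2 at −5.06.

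Markers of several cell types moved with these genes, and their part in the results was not tested. All 8 Kupffer cell markers were higher, with a median log2 fold change of 4.04. Of 11 macrophage and monocyte markers tested 10 were higher (3.63; summed level 1186 to 1629 CPM in GFP-negative and 16404 to 16770.2 CPM in GFP-positive libraries). The other one, Ly6c2, was lower, at −6.50 ± 1.62 (edgeR adjusted p = 0.0338). Ccr2 of the same list was too low to be tested, with 0, 44 and 0 counts in GFP-negative and 0, 0 and 1 counts in GFP-positive libraries. Of 12 pan-endothelial markers 8 were higher and 4 did not pass (1.11; 2197 to 2335 CPM in GFP-negative and 4381 to 4965 CPM in GFP-positive libraries), and of 11 sinusoidal markers 9 were higher and 2 did not pass (1.32; 4560.0 to 5296 CPM in GFP-negative and 11152 to 12584 CPM in GFP-positive libraries). The 12 called antioxidant genes, at 0.62 to 1.66, lay below every Kupffer cell marker, the lowest of which was at 2.89. All 12 lay within the ranges of the pan-endothelial markers (0.40 to 1.85) and of the platelet markers (0.25 to 1.93). The wider ranges of the macrophage and monocyte markers (−6.50 to 4.79) and the dendritic cell markers (−6.94 to 2.89) also held all 12. That of the stellate cell and fibroblast markers (−1.19 to 2.02) did too. The 12 genes also lay within the range of the sinusoidal markers except Nfe2l2, Gstm1 and Gstp1, which were below its lowest value of 0.77. Which cells the transcripts came from was not tested. Platelet markers were higher in 3 of 6 (602 to 792 CPM in GFP-negative and 1609.8 to 1878 CPM in GFP-positive libraries).

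Other markers were mostly lower in GFP-positive libraries or did not pass. Hepatocyte markers, from cells that also carry much Gstm1, Mt1, Cat and Prdx6 RNA, were lower in 6 of 14 and not past the test in 8 (−0.77; 3129 to 3416 CPM in GFP-negative and 1496 to 2195 CPM in GFP-positive libraries). Erythroid markers, from cells rich in Prdx2 and Cat, did not pass in any of the 6 tested, with a median of −4.22 (7579 to 10693 CPM in GFP-negative and 51.7 to 1506 CPM in GFP-positive libraries). Of the markers of B cells, 8 of 8 fell (−7.04). Of T and NK cell markers 2 of 8 tested were lower, with a median of −4.79. The markers of this list summed to 309 to 358 CPM in GFP-negative and 10.2 to 72.7 CPM in GFP-positive libraries, with Klrb1c at 0 in every library. Of dendritic cell markers 1 of 6 tested was lower, Ccr7, which B and T cells also express. The median log2 fold change over these 6 was 0.08. Ccr7 alone stood at 3022 to 3559 CPM in GFP-negative and 19.5 to 32.3 CPM in GFP-positive libraries, and the other 6 dendritic cell markers in the table summed to 62.7 to 78.1 CPM in GFP-negative and 58.3 to 103 CPM in GFP-positive libraries. Immediate-early and heat-shock genes, which stress during cell preparation can raise, were lower in 11 of 12 (−4.01; 7282 to 7688 CPM in GFP-negative and 451 to 589 CPM in GFP-positive libraries). The cause of this difference was not tested. Neutrophil markers summed to 3.09 to 5.35 CPM in GFP-negative and 1.61 to 11.2 CPM in GFP-positive libraries, with Elane, Ngp and Ltf at 0 in every library. Cholangiocyte markers summed to 10.4 to 13.4 CPM in GFP-negative and 0 to 7.22 CPM in GFP-positive libraries, with Cftr at 0 in every library, and markers of stellate cells and fibroblasts to 28.3 to 101 CPM in GFP-negative and 158 to 237 CPM in GFP-positive libraries.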

How the data were processed

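The authors deposited 1 table of raw read counts per Ensembl gene for 6 libraries. The submitters' processing notes name TopHat2 2.0.12, Bowtie2 2.2.3, RSEM, HTSeq 0.6.1, edgeR and DESeq 1.18.0 without their roles. The genome build, the annotation and any use of strand were not given in the sources used here. Of 35275 identifiers 34490 were matched to a symbol in a table of gene names.

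Genes were filtered with edgeR's filterByExpr (minimum count 10), which left 12122, scaled by TMM and tested with the quasi-likelihood test (R 4.3.3, edgeR 4.0.16) with Benjamini-Hochberg adjustment over all of them; SEs come from the test statistic. DESeq2 1.42.0 was an alternative. With 16766556 to 22627555 counts per library, 3 counts over a group correspond to 0.0496 CPM in GFP-negative and 0.0584 CPM in GFP-positive libraries. The fit was also run on simulated counts, with a check on the median fitted log2 fold change alone. The share of true changes it recovered is not given here, so genes not past the test may still differ. Groups come from the label of sorted cells, and the libraries were numbered by accession order, without pairing. Alternatives were other scaling, filters and tools, leaving out lymphocyte genes, and leaving out each library.

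The 34 genes and all lists were chosen with earlier results of these data known. Genes are given with all 6 values where they passed, regulate NRF2 or did not overlap; of the other pathway genes 7 were named in any case, with up to 3 called in each direction per list. Lengths are merged exons in GENCODE M21; promoters are from RefSeq GRCm38.p6. Ighd and Clec4m, 2 symbols of the marker lists, had no row in the table.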

Additional observations from a re-analysis of the deposited data

How the results depend on the processing

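No paired analysis was possible because the labels give no replicate number shared between the groups. Under RLE size factors, library totals alone, no filter on low counts, a minimum count of 50 and without 269 immunoglobulin, B, T and NK cell genes, 10 to 12 of the antioxidant genes were called higher and 0 lower. Without a filter, with library totals alone and without the lymphocyte genes, the 2 calls lost were Nfe2l2 and Gsr, and with RLE size factors the 1 lost was Gsr. DESeq2, run on every gene with any count, called 3791 genes in either direction, and 17 of the antioxidant genes higher and 2 lower. The shares of all genes called in edgeR's main fit do not apply to DESeq2 or to the fits without 1 library. Shares by direction for those settings are not given here. Leaving out 1 library gave 994 to 1810 genes in all, 6 to 11 antioxidant genes higher (6 without GFP-negative library 1 and 6 without GFP-negative library 3), 0 to 1 lower (Txnip, without GFP-negative library 1), and 10 to 15 other pathway genes higher and 1 to 4 lower. The median log2 fold change of the antioxidant genes was 0.68 to 0.76 over all these settings, while that of all genes tested was −0.27 with DESeq2 and without a filter against −0.09.

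Of the 12 calls 5, for Sod1, Prdx1, Prdx5, Txn1 and Gstm2, passed under every alternative run. Of the uncalled genes among the 33 antioxidant and 18 named pathway genes, 6 changed sign when 1 library was left out: Slc7a11 ran from −2.06 to 0.19 (positive without GFP-negative library 3 or GFP-positive library 1 or 3), Gss from −0.0033 to 0.91 (negative without GFP-positive library 3), Prdx3 from −0.17 to 0.41 (negative without GFP-negative library 3 or GFP-positive library 2), Bach1 from −1.82 to 0.84 (negative without GFP-negative library 3 or GFP-positive library 3), Maff from −0.050 to 0.45 (negative without GFP-negative library 2) and Mafg from −0.43 to 0.41 (negative without GFP-negative library 2 or 3 or GFP-positive library 3). The cause was not tested.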

Other observations

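Within a group, the antioxidant genes spread less between libraries than genes in general. The median coefficient of variation of CPM was 15.8% over the 33 genes and 31.7% over all 12122 genes tested in GFP-negative libraries, and 25.6% against 41.7% in GFP-positive libraries (n = 3 each); the difference was not tested. The 33 genes also lie at higher levels, with 22 in the highest of 4 equal classes of all genes tested by mean log2 CPM.

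Gstp2, a near-identical copy of Gstp1, stood at 2.17, 3.09 and 3.05 CPM in GFP-negative and 26.6, 13.3 and 10.2 CPM in GFP-positive libraries, with no overlap, and did not pass (log2 fold change 2.59 ± 0.83, edgeR adjusted p = 0.0754). It was chosen after its values had been seen, and reads shared between the copies leave both values uncertain.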
